A study of Mus musculus with 56 samples.

Results

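Adrenal glands of 9-week-old female mice with a conditional knockout (cKO) of Znrf3 were compared with those of littermate controls by bulk RNA sequencing of poly(A) RNA. The comparison uses 8 of the 56 samples of the study, chosen by sex, age and genotype in their labels. There were 4 cKO glands, labelled SF1-Cre+; Znrf3 Fx/Fx, and 4 control glands, labelled SF1-Cre negative, all from untreated C57BL/6J females; the Znrf3 allele of the controls is not stated in the sources used here. Per the series' design text the 4 animals of a group were independent mice. The study asked what accompanies the switch of these glands from hyperplasia to regression, and also sampled females at 6 and 12 weeks, which entered the same fit (24 female libraries in 6 groups). SF1-Cre is active in steroidogenic cells, so the deletion is placed in the cortex, while the chromaffin, immune, vascular and nerve cells of the whole gland keep their alleles. SF1 is also expressed in the gonads and in parts of the pituitary and hypothalamus, so tissues outside the gland are not spared.

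ZNRF3 is a membrane ubiquitin ligase that removes Frizzled receptors from the cell surface and so dampens Wnt signalling, and R-spondins, acting through Lgr receptors, block it. In the adrenal cortex, Wnt signals from the outer gland maintain the zona glomerulosa, where aldosterone is made, and fade toward the zona fasciculata, where corticosterone is made. The chromaffin cells of the medulla, in the centre, make catecholamines. Females also keep an inner X-zone, a remnant of the fetal cortex.

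The 8 libraries held between 35694264 and 41997539 counts, and cortical enzymes were abundant in all of them, with Cyp21a1, the steroid 21-hydroxylase, at 15728 to 18719 CPM in cKO glands, against 15786 to 19116 CPM in control glands. Levels are given as CPM, a gene's counts as a share of the library total after TMM scaling, in the order of replicates 1 to 4. Differences are log2 fold changes of cKO over control from edgeR's quasi-likelihood test, called at an adjusted p under 0.05 over the 18645 genes tested. Of these, 2728 genes (14.6%) were higher and 3722 (20%) lower in cKO glands, or 34.6% in all, with a median log2 fold change of -0.0189. At 2-fold or more the calls were uneven, with 322 genes (1.73%) higher and 1901 (10.2%) lower. The 4 cKO libraries lay wholly beyond the 4 controls for 6236 genes (33.4%).

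Within the cKO group, replicate 3 stood apart. It was the lowest of the 4 cKO libraries for 25 of the 28 chromaffin genes and for 24 of the 31 macrophage genes described below, so results that rest on it are also given without it. Liver transcripts were present in cKO replicates 1 and 2 and, at a lower level, in control replicate 4, with Alb, the albumin gene, at 14.4, 11.01, 0.0536 and 0.0814 CPM in cKO glands, against 0.0235, 0.0549, 0.0552 and 3.14 CPM in control glands (log2 fold change 2.94, adjusted p = 0.216). With cKO replicates 1 and 2 left out for these transcripts, a choice made after seeing the data, 5240 genes were called, of which 4671 were among the 6450 called with every library, and all 28 chromaffin genes were still lower.

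**Figure D1:**
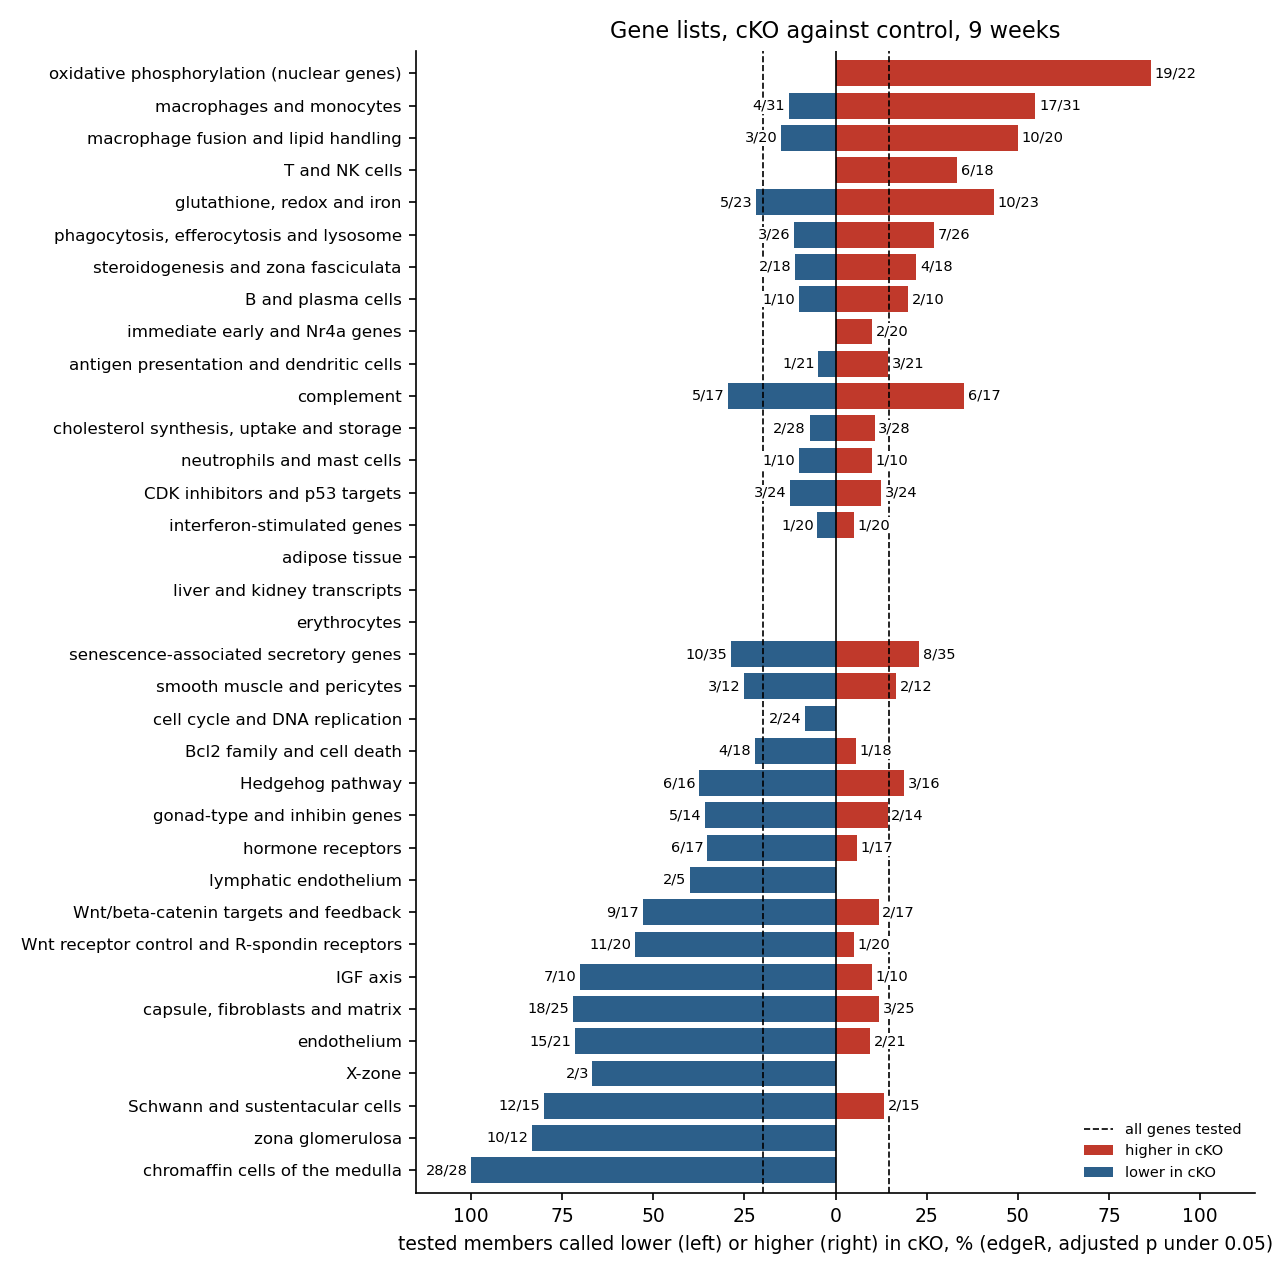
Percentage of tested members of each gene list that were higher (right of 0) or lower (left of 0) in cKO than in control glands at 9 weeks, with the number called over the number tested; dashed lines mark the percentages over all genes, 14.6 higher and 20 lower. The chromaffin list is lower throughout (28 of 28), and the oxidative phosphorylation list has the largest share of higher members (19 of 22).

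The targeted gene was not lower in the gene-level counts. Znrf3 (GRCm38 chr11:5276324-5444847, minus strand) had 68.0, 67.1, 85.6 and 76.9 CPM in cKO glands, against 38.9, 32.1, 38.0 and 34.1 CPM in control glands. All cKO libraries lay above all controls (log2 fold change 1.06 ± 0.13 (SE), adjusted p = 1.86e-06). These counts cover the whole gene, and which exons are floxed is not stated in the sources used here, so they do not check the deletion; the genotype labels were used as given. The level of Rnf43, the close relative of Znrf3, was 5.67, 3.49, 4.80 and 5.02 CPM in cKO glands, against 8.498, 11.1, 10.8 and 7.35 CPM in control glands. The groups did not overlap, but the difference missed the threshold (log2 fold change -0.99 ± 0.46 (SE), adjusted p = 0.0991).

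Of 20 tested genes that control Wnt receptors, 11 were lower and 1, Znrf3, was higher, against 20% and 14.6% of all genes, and the list's median log2 fold change was -0.37. Lgr5, a receptor for R-spondins, had 3.54, 3.34, 1.93 and 3.85 CPM in cKO glands, against 25.1, 28.02, 29.8 and 26.8 CPM in control glands (log2 fold change -3.11 ± 0.26 (SE), adjusted p = 7.38e-09). No cKO library came near the controls. Rspo3, the R-spondin made by the adrenal capsule, had 14.2, 10.1, 5.89 and 6.97 CPM in cKO glands, against 42.7, 42.4, 38.7 and 45.9 CPM in control glands. Again the groups were far apart (log2 fold change -2.19 ± 0.28 (SE), adjusted p = 2.36e-06). The R-spondin receptor Lgr6 fell as well (log2 fold change -0.93, adjusted p = 0.038). Lgr6 was not called without cKO replicates 2, 3 or 4 or control replicates 2 or 3 (adjusted p up to 0.122). Rspo1 fell too, at 1.41 to 2.01 CPM in cKO glands, against 3.48 to 5.59 CPM in control glands (log2 fold change -1.39, adjusted p = 0.00177). The ligand Wnt2b was at 4.92 to 9.14 CPM in cKO glands, against 24.6 to 30.2 CPM in control glands (log2 fold change -1.93, adjusted p = 2.87e-04). Wnt4, a ligand made by cortical cells, had 269.5 to 402 CPM in cKO glands, against 359 to 408 CPM in control glands, and this difference missed the threshold (log2 fold change -0.20, adjusted p = 0.211). Among the Frizzled receptors Fzd2, Fzd3, Fzd5, Fzd6 and Fzd7 fell, Fzd2 most (log2 fold change -0.95 ± 0.19 (SE), adjusted p = 4.76e-04) and Fzd3 least (log2 fold change -0.26, adjusted p = 0.0254). Fzd3 was not called without cKO replicates 1 or 3 or control replicates 1, 3 or 4 (adjusted p up to 0.0838). Fzd1, Fzd4, Fzd8 and Fzd9 were not called. The coreceptor Lrp6 fell to a small degree (log2 fold change -0.29, adjusted p = 0.00915), and its relative Lrp5 was not called (log2 fold change 0.092, adjusted p = 0.646).

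Genes that respond to or restrain Wnt/beta-catenin signalling moved apart from each other. Of 17 tested, 9 were lower, 2 higher and 6 not called, against 20% lower and 14.6% higher of all genes, with a median of -0.88. Axin2, the general target that feeds back on beta-catenin, had 61.6, 48.2, 49.1 and 52.4 CPM in cKO glands, against 53.2, 59.0, 63.2 and 56.4 CPM in control glands. The libraries overlapped and no difference was called (log2 fold change -0.13 ± 0.13 (SE), adjusted p = 0.474). Lef1, which carries beta-catenin to DNA, had 5.05, 5.42, 4.29 and 4.45 CPM in cKO glands, against 9.95, 11.1, 11.5 and 12.02 CPM in control glands. Here every cKO library lay below every control (log2 fold change -1.22 ± 0.21 (SE), adjusted p = 1.16e-04). Apcdd1, an inhibitor of Wnt at the membrane, had 16.5, 9.48, 11.2 and 10.99 CPM in cKO glands, against 46.7, 57.5, 53.2 and 40.4 CPM in control glands (log2 fold change -2.04 ± 0.19 (SE), adjusted p = 3.05e-08). Nkd1, which restrains Dishevelled, fell by 2.95-fold (log2 fold change -1.56, adjusted p = 1.22e-07). Notum, the secreted enzyme that strips Wnt of its lipid, fell by 3.31-fold (log2 fold change -1.73, adjusted p = 8.50e-06). Sfrp1, Dkk3, Nkd2, Wif1 and the cyclin gene Ccnd1 completed the lower group, with Wif1 (log2 fold change -2.20, adjusted p = 0.00689) further down without cKO replicate 3 (log2 fold change -2.78, adjusted p = 0.00425). Of the 2 that rose, Myc, a driver of growth, had 119.9, 158, 161 and 100 CPM in cKO glands, against 63.2, 70.5, 66.9 and 55.8 CPM in control glands (log2 fold change 1.07 ± 0.20 (SE), adjusted p = 2.74e-04). The other, Tnfrsf19, had 207 to 258 CPM in cKO glands, against 165 to 187 CPM in control glands (log2 fold change 0.42, adjusted p = 0.00178).

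The zona glomerulosa list fell almost as a whole: 10 of 12 genes were lower and none was higher, against 20% and 14.6% of all genes. Its median was -0.95. Agtr1b, a receptor for angiotensin II, had 4.34, 2.89, 3.97 and 4.12 CPM in cKO glands, against 20.3, 24.9, 17.3 and 15.1 CPM in control glands (log2 fold change -2.34 ± 0.20 (SE), adjusted p = 1.53e-08). Kcnk9, a background potassium channel, had 72.3, 51.2, 66.3 and 54.3 CPM in cKO glands, against 264, 274, 301 and 241 CPM in control glands (log2 fold change -2.15 ± 0.18 (SE), adjusted p = 1.35e-08). For both, the groups stood well apart. Shh, the Hedgehog ligand that outer cortical cells send to the capsule, had 22.1, 16.03, 11.7 and 12.8 CPM in cKO glands, against 42.8, 50.6, 50.1 and 58.2 CPM in control glands (log2 fold change -1.68 ± 0.23 (SE), adjusted p = 6.51e-06). Cyp11b2, the aldosterone synthase, had 57.5, 40.9, 189 and 53.2 CPM in cKO glands, against 234, 285, 158 and 219 CPM in control glands. Replicate 3 of the cKO group lay within the control range, and the other 3 lay below it. The fall was called with that library (log2 fold change -1.40 ± 0.36 (SE), adjusted p = 0.00394) and was larger without it (log2 fold change -2.15, adjusted p = 3.05e-06). With cKO replicates 1 and 2 left out instead, the Cyp11b2 fall was smaller and not called (log2 fold change -0.86, adjusted p = 0.1). Vsnl1, Dab2, Hsd3b6, Cacna1h, Agtr1a and Kcnk3 also fell, by between 1.37-fold for Kcnk3 and 3.71-fold for Vsnl1. Kcnj5 and Nr4a2 were not called.

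In the Hedgehog list, 6 of 16 tested genes were lower (37.5%), 3 were higher (18.8%) and 7 were not called. Of all genes 20% were lower and 14.6% higher, and the list's median log2 fold change was -0.19. Gli1, the transcriptional effector and target, had 4.06, 2.84, 2.73 and 3.50 CPM in cKO glands, against 11.3, 9.03, 8.499 and 14.2 CPM in control glands (log2 fold change -1.71 ± 0.31 (SE), adjusted p = 1.47e-04). Hhip, which binds and limits the ligand, had 6.23, 2.65, 3.35 and 3.85 CPM in cKO glands, against 13.8, 20.7, 19.01 and 16.9 CPM in control glands (log2 fold change -2.13 ± 0.28 (SE), adjusted p = 3.30e-06). All cKO values lay below all controls for both. Gli2, Gli3, the receptor Ptch1 (log2 fold change -0.67, adjusted p = 0.0171) and the coreceptor Cdon fell as well. Ptch1 was not called without cKO replicate 2 (adjusted p = 0.0683). Against these, Scube1 rose to 93.4, 132, 163 and 174 CPM in cKO glands, against 38.7, 25.99, 15.1 and 19.4 CPM in control glands (log2 fold change 2.50 ± 0.28 (SE), adjusted p = 5.23e-07). Members of the Scube family aid release of the Hedgehog ligand. Scube3 (log2 fold change 0.51, adjusted p = 0.00271) and the transducer Smo (log2 fold change 0.31, adjusted p = 0.0426) were the other 2 that rose. Smo was not called without cKO replicates 3 or 4 or control replicates 2, 3 or 4 (adjusted p up to 0.219).

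**Figure D2:**
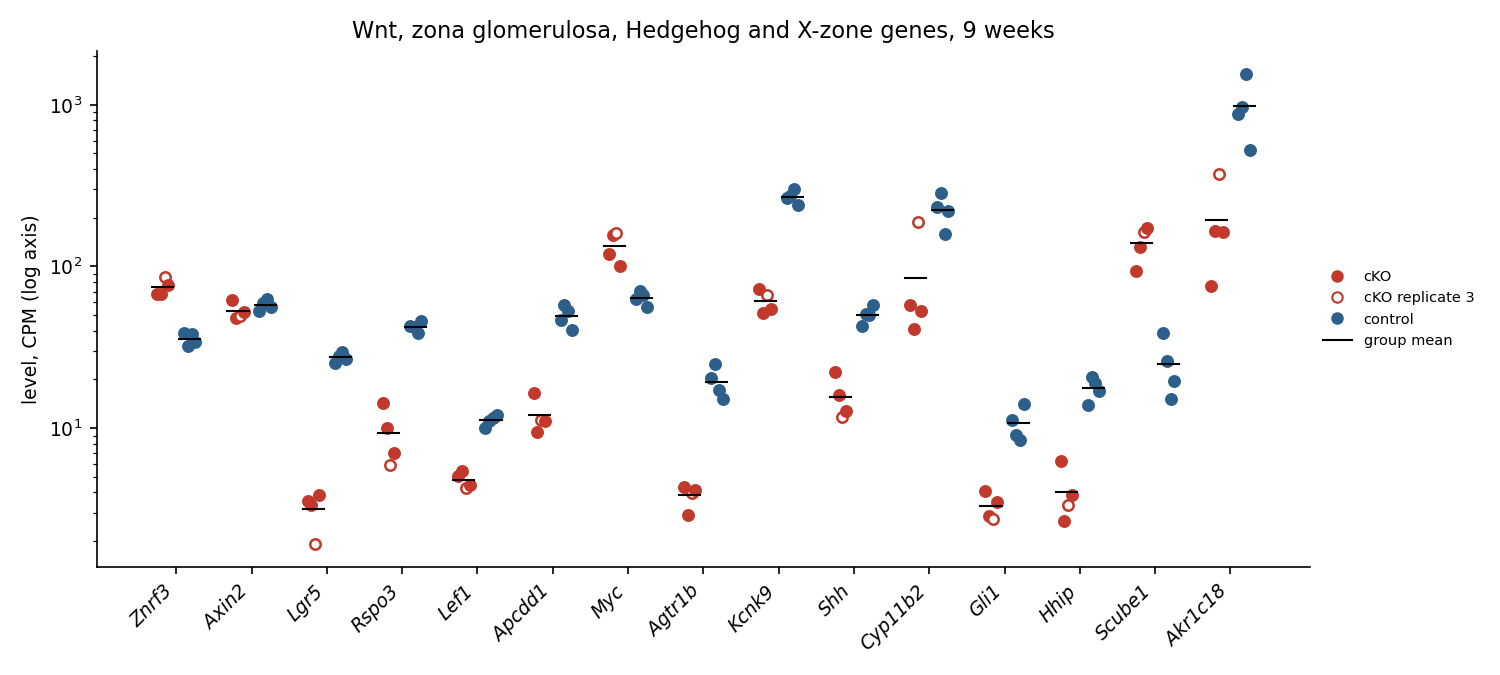
Levels (CPM, log axis) of Wnt, zona glomerulosa, Hedgehog and X-zone genes in each 9-week library, cKO to the left of control within each gene, with a bar at each group mean. Cyp11b2 in cKO replicate 3 (189 CPM, open circle) lies among the controls, while for Lgr5, Apcdd1, Kcnk9 and Gli1 all cKO libraries lie below all controls.

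Genes for steroid synthesis had a median of 0.03 as a list. Of 18, 4 were higher (22.2%), 2 were lower (11.1%) and 12 were not called, against 14.6% higher and 20% lower of all genes. Star had 6000, 7443, 6913 and 7716 CPM in cKO glands, against 10478, 14207, 15023 and 10162 CPM in control glands (log2 fold change -0.83 ± 0.20 (SE), adjusted p = 0.00264), a fall with no overlap. Cyp11b1, the enzyme that completes corticosterone, had 7606, 8952, 9394 and 8928 CPM in cKO glands, against 9117, 8088, 9122 and 9733 CPM in control glands, with the groups mixed (log2 fold change -0.048 ± 0.13 (SE), adjusted p = 0.814). The regulators rose. Nr5a1, which encodes SF1, had 1631, 2020, 1906 and 1957 CPM in cKO glands, against 997, 1200, 1249 and 973 CPM in control glands (log2 fold change 0.77 ± 0.15 (SE), adjusted p = 3.60e-04). Nr0b1, which encodes its partner DAX1, had 109, 99.8, 96.7 and 92.0 CPM in cKO glands, against 69.0, 66.6, 42.6 and 56.1 CPM in control glands (log2 fold change 0.76 ± 0.13 (SE), adjusted p = 6.29e-05). The isoforms of 3beta-hydroxysteroid dehydrogenase split, with Hsd3b1 higher (log2 fold change 0.37, adjusted p = 0.00961) and the glomerulosa form Hsd3b6 lower (log2 fold change -0.88, adjusted p = 0.012); the counting of reads shared by such close relatives is not stated in the sources used here. Akr1b7, a reductase of the fasciculata, was lower (log2 fold change -0.997, adjusted p = 0.0153). Akr1b7 was not called without cKO replicate 1 or control replicate 3 (adjusted p up to 0.0786).

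Of 3 X-zone genes tested, 2 were lower, against 20% of all genes, and Thrb was not called (log2 fold change 0.035, adjusted p = 0.922). Akr1c18, the defining marker of the zone, had 75.2, 165, 373 and 165 CPM in cKO glands, against 872, 964, 1546 and 527 CPM in control glands. All cKO libraries lay below the controls, which varied widely among themselves (log2 fold change -2.33 ± 0.71 (SE), adjusted p = 0.0141). Pik3c2g, the other gene called lower, had 27.6, 49.6, 14.2 and 45.6 CPM in cKO glands, against 95.1, 117, 78.5 and 42.9 CPM in control glands. Its groups overlapped through control replicate 4 (log2 fold change -1.28, adjusted p = 0.0321). Pik3c2g was not called without cKO replicates 1 or 3 or control replicates 1, 2 or 3 (adjusted p up to 0.102).

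Of 28 genes of cholesterol synthesis, uptake and storage, 3 were higher and 2 lower, against 14.6% and 20% of all genes. Scarb1, the receptor that takes up cholesterol from lipoproteins, had 782, 1038, 1575 and 1079 CPM in cKO glands, against 1629, 1893, 2994 and 1836 CPM in control glands (log2 fold change -0.90 ± 0.24 (SE), adjusted p = 0.00634). Dhcr7, the last enzyme of one synthesis branch, fell by 1.66-fold (log2 fold change -0.73, adjusted p = 0.00116). Fdft1, squalene synthase, rose (log2 fold change 0.69, adjusted p = 8.94e-04). So did Soat1, which esterifies cholesterol for storage (log2 fold change 0.26, adjusted p = 0.00196), and Hmgcs1, an early enzyme of the pathway (log2 fold change 0.61, adjusted p = 0.0288). Hmgcs1 was not called without cKO replicates 2, 3 or 4 or control replicates 2 or 3 (adjusted p up to 0.115). Without control replicate 3 the list had 4 lower members. Among gonad-type and inhibin genes, Inha, the inhibin alpha subunit, had 22.7, 26.3, 15.99 and 21.9 CPM in cKO glands, against 37.3, 46.7, 44.9 and 40.2 CPM in control glands (log2 fold change -0.96 ± 0.16 (SE), adjusted p = 8.05e-05). Inhba and Fst fell as well, in a list with 5 of 14 lower and 2 higher, against 20% and 14.6% of all genes. Cyp17a1 stayed at or below 0.331 CPM in every 9-week library, and Cyp19a1 and Fshr were too low to be tested.

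The medullary genes gave the most uniform change of all lists examined. All 28 chromaffin genes tested were lower in cKO glands, with a median log2 fold change of -2.73, and for all 28 every cKO library lay below every control, while 19.6% of all genes tested were separated in that direction. Their summed level was 689, 853, 332 and 847 CPM in cKO glands, against 5309, 6054, 5648 and 6706 CPM in control glands. In bulk tissue, fewer cells of a type and less RNA per cell cannot be told apart. The fall reached each class of gene in the list. Chga, the main granin of the secretory granule, had 175, 208, 86.6 and 204 CPM in cKO glands, against 1577, 1855, 1649 and 1998 CPM in control glands (log2 fold change -3.39 ± 0.27 (SE), adjusted p = 5.02e-09). Th, the first enzyme of catecholamine synthesis, had 29.6, 47.0, 18.5 and 46.5 CPM in cKO glands, against 207, 264, 282 and 273 CPM in control glands (log2 fold change -2.86 ± 0.29 (SE), adjusted p = 1.08e-07). Pnmt, which makes adrenaline and depends on glucocorticoid from the cortex, had 3.42, 4.75, 2.06 and 5.54 CPM in cKO glands, against 69.1, 187, 140.2 and 114 CPM in control glands. Its fall, 32.3-fold, was the largest of the list (log2 fold change -5.02 ± 0.41 (SE), adjusted p = 6.05e-09), and the control values spread more widely than those of Chga. Gata3, a transcription factor of the lineage, fell with the enzymes and had 0.831 to 2.13 CPM in cKO glands, against 14.2 to 19.7 CPM in control glands (log2 fold change -3.41, adjusted p = 2.46e-09). The smallest falls were those of Slc6a2, the noradrenaline transporter (log2 fold change -1.93, adjusted p = 7.40e-07), and Ret, a receptor kinase (log2 fold change -2.09, adjusted p = 4.20e-06). In replicate 3 of the cKO group the summed level was less than in any other library, and leaving it out kept all 28 calls.

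Promoter sequences were at hand for 18 of the 28 chromaffin genes (RefSeq, GRCm38.p6, 250 bases before to 50 after each start). A motif search covered both strands of the promoters of 8 gene lists for 10 motifs: the cAMP response element TGACGTCA and its variant TGACGTAA, CTTTGAT and CTTTGAA (TCF/LEF), CAAGGTCA and TCAAGGCCA (SF1), TCACGTG and TCACATG (MiT factors), TGACTCA (AP-1) and GAGGAAGT (PU.1). The element TGACGTCA was in 5 of the 18 genes (Cartpt, Chgb, Scg2, Slc18a2 and Th), against 2.03% of 27025 genes and 1.79% of 32851 promoters. The variant TGACGTAA, which does not overlap it, was in 1, Chga, against 0.581% of genes. TGACGTCA began 45 bases before the start in Th, 68 in Scg2, 72 in Chgb, 112 in Cartpt and 4 in Slc18a2, and the variant began 44 before it in Chga. Across the other 7 lists, TCACGTG was in 4 of 18 cholesterol genes against 4.29% of genes, and TGACTCA was in 4 of 24 macrophage genes against 5.95%; no other pair of list and motif had more than 2 genes. With so many pairs searched and no test run, these counts are descriptions. The promoters of Th and of the granins Chgb, Scg2 and Chga, a choice made after seeing the matches, are shown with the element, or in Chga its variant, in capitals. All 28 chromaffin genes fell, with or without a match, so the fall does not set these 4 apart. A match describes letters and not a bound site.
Th (chr7:142899946-142900245, minus strand): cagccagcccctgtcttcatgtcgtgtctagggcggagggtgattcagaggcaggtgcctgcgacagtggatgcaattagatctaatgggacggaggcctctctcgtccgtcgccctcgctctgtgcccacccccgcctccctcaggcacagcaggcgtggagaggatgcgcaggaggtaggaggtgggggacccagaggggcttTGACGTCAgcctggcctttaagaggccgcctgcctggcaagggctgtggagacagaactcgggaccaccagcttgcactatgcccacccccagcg
Chgb (chr2:132781392-132781691, plus strand): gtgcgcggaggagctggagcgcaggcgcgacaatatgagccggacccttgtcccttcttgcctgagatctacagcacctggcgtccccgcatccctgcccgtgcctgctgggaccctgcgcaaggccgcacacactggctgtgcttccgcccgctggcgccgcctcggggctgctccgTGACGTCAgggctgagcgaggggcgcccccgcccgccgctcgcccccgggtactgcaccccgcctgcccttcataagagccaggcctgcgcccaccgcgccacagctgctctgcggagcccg
Scg2 (chr1:79439977-79440276, minus strand): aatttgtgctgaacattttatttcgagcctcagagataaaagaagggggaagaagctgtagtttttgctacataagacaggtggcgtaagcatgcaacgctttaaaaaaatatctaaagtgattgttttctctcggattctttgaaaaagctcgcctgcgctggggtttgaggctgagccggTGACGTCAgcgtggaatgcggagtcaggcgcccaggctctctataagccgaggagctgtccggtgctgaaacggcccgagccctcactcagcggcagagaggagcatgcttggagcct
Chga (chr12:102554691-102554990, plus strand): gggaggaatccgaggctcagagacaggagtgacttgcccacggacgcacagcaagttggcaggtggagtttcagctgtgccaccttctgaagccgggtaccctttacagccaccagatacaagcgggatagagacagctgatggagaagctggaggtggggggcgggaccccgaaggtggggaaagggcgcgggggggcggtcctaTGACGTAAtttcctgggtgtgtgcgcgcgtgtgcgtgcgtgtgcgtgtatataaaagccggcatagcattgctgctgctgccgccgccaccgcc
In these windows the start of the capitals is 45, 72, 68 and 44 bases before the start of transcription. Scg2 and Chgb fell as Th and Chga did, with Chgb at 252, 313, 108 and 312 CPM in cKO glands, against 1977, 2093, 2085 and 2594 CPM in control glands (log2 fold change -3.15 ± 0.28 (SE), adjusted p = 2.33e-08). Scg2 had 46.6 to 123 CPM in cKO glands, against 688 to 860.2 CPM in control glands (log2 fold change -3.02, adjusted p = 1.07e-08).

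Most glial genes were lower as well, though their list was not uniform. Of 15 Schwann and sustentacular genes, 12 were lower, 2 higher and 1 not called, against 20% lower and 14.6% higher of all genes, with a median of -1.50. The summed level of the list was not lower, at 254, 227, 216 and 244 CPM in cKO glands, against 220, 214, 204 and 227 CPM in control glands. Sox10, the lineage factor, had 0.331, 0.741, 0.0804 and 0.841 CPM in cKO glands, against 2.46, 2.83, 2.93 and 2.58 CPM in control glands (log2 fold change -2.43 ± 0.40 (SE), adjusted p = 5.63e-05). Ncam1 had 2.49 to 4.07 CPM in cKO glands, against 16.03 to 18.3 CPM in control glands (log2 fold change -2.36, adjusted p = 4.27e-09). The myelin genes Pmp22 (log2 fold change 0.45, adjusted p = 1.72e-04) and Mbp (log2 fold change 0.50, adjusted p = 0.0334) rose; both are also expressed outside glia. Mbp was not called without cKO replicates 3 or 4 or control replicates 2, 3 or 4 (adjusted p up to 0.0771).

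**Figure D3:**
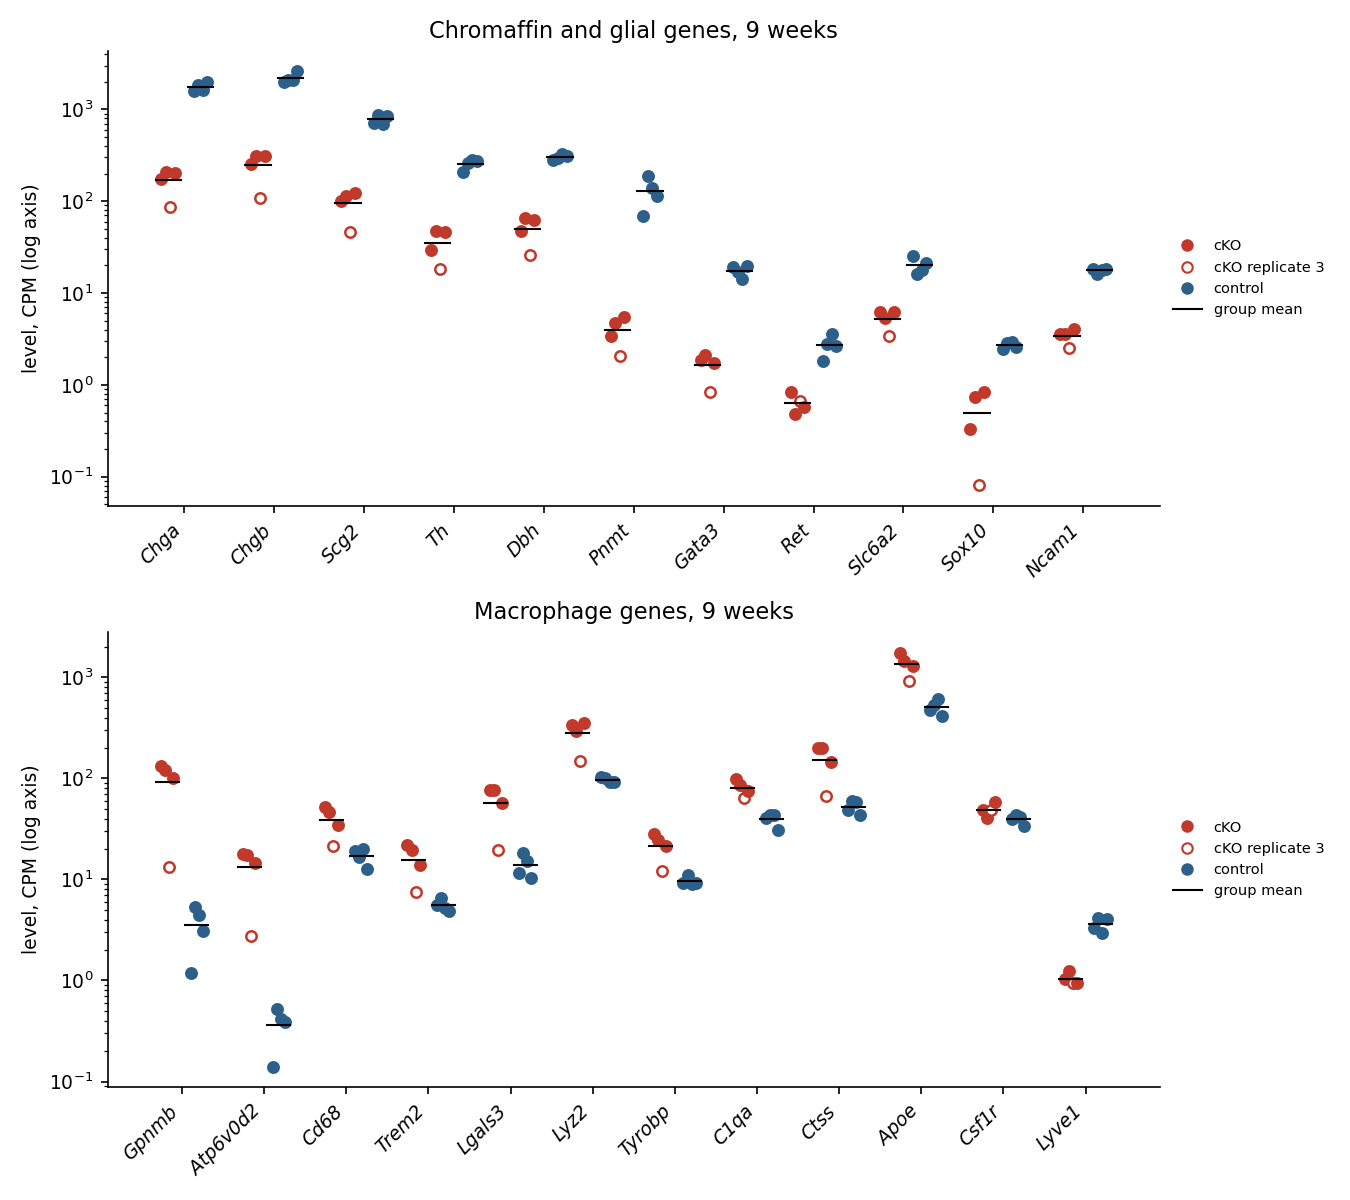
Levels (CPM, log axis) of chromaffin and glial genes (upper panel) and of macrophage genes (lower panel) in each 9-week library, cKO left of control, with a bar at each group mean and cKO replicate 3 as an open circle. All cKO libraries lie below the controls in the upper panel; in the lower panel replicate 3 of the cKO group lies between the other cKO libraries and the controls for Gpnmb, Atp6v0d2 and Cd68.

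Macrophage genes moved the other way. Of 31 tested, 17 were higher, 4 lower and 10 not called, against 14.6% and 20% of all genes, and the median was 0.59. The summed level was 1466, 1282, 777 and 1300 CPM in cKO glands, against 624, 671, 664 and 556 CPM in control glands. Gpnmb, a glycoprotein of lysosomes in macrophages that hold lipid, had 134, 121, 13.4 and 100.9 CPM in cKO glands, against 1.197, 5.30, 4.44 and 3.11 CPM in control glands (log2 fold change 4.73 ± 0.87 (SE), adjusted p = 1.97e-04). Replicate 3 was far below the other cKO glands yet above every control. Without it the estimate was larger (log2 fold change 5.09, adjusted p = 6.76e-05). Cd68, a lysosomal marker of macrophages, had 52.4, 46.4, 21.5 and 34.6 CPM in cKO glands, against 19.2, 16.6, 20.1 and 12.6 CPM in control glands (log2 fold change 1.18 ± 0.36 (SE), adjusted p = 0.0151). Cd68 was not called without cKO replicate 1 (adjusted p = 0.0535). Trem2, a lipid-sensing receptor, had 21.7, 19.5, 7.58 and 14.03 CPM in cKO glands, against 5.63, 6.51, 5.22 and 4.82 CPM in control glands (log2 fold change 1.51 ± 0.34 (SE), adjusted p = 0.0014). Both showed the same order, with replicate 3 nearest to the controls. Lyz2, Lgals3, Tyrobp, Fcgr3 and the 3 C1q genes rose by between 1.92-fold for C1qb and 4.15-fold for Lgals3. The pan-macrophage receptor Csf1r rose the least, with overlapping groups at 40.9 to 58.3 CPM in cKO glands, against 34.04 to 43.5 CPM in control glands (log2 fold change 0.31, adjusted p = 0.0481). Csf1r was not called without cKO replicates 1, 3 or 4 or control replicates 1, 3 or 4 (adjusted p up to 0.186). Adgre1, which encodes F4/80, was not called (log2 fold change 0.57, adjusted p = 0.0691).

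The 4 that fell were Lyve1, Folr2, Ccr2 and Cd9. Folr2 (log2 fold change -1.18, adjusted p = 0.0413) was close to the threshold. Folr2 was not called without cKO replicates 2 or 4 or control replicates 1, 3 or 4 (adjusted p up to 0.123). Lyve1 and Folr2 mark macrophages of vessel walls and tissue, and Lyve1 also marks lymphatic vessels; Lyve1 had 1.04, 1.24, 0.938 and 0.95 CPM in cKO glands, against 3.31, 4.14, 2.98 and 4.06 CPM in control glands (log2 fold change -1.79 ± 0.40 (SE), adjusted p = 0.00134). Ccr2, the receptor that brings monocytes into tissue, had 2.20 to 6.13 CPM in cKO glands, against 4.97 to 11.1 CPM in control glands, with the groups overlapping (log2 fold change -0.88, adjusted p = 0.0433). Ccr2 was not called without cKO replicates 1, 2 or 3 or control replicates 1, 2 or 4 (adjusted p up to 0.141). Without cKO replicate 2, control replicate 1 or control replicate 4 only 2 members were lower. Without cKO replicate 3 the list had 15 higher and 4 lower, and without cKO replicates 1 and 2 it had 10 higher and 2 lower.

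Genes of macrophage fusion and lipid handling followed, with 10 of 20 higher and 3 lower, against 14.6% and 20% of all genes. Atp6v0d2, a proton-pump subunit of fused macrophages and osteoclasts, had 17.7, 17.6, 2.76 and 14.6 CPM in cKO glands, against 0.141, 0.522, 0.414 and 0.389 CPM in control glands (log2 fold change 5.18 ± 0.83 (SE), adjusted p = 4.52e-05). Apoe, the lipid carrier, had 1757, 1454, 916 and 1293 CPM in cKO glands, against 478, 534, 607 and 416 CPM in control glands (log2 fold change 1.41 ± 0.30 (SE), adjusted p = 8.08e-04). In both genes the lowest cKO library was replicate 3, above all controls. Fabp5 (log2 fold change 1.54, adjusted p = 0.0142), Pparg (log2 fold change 1.01, adjusted p = 0.0192), Lipa, the lysosomal acid lipase (log2 fold change 0.50, adjusted p = 1.84e-04), and Plin2, which coats lipid droplets (log2 fold change 0.32, adjusted p = 8.84e-05), rose too. Pparg was not called without control replicate 2 (adjusted p = 0.0526). The fusion gene Dcstamp ran against them, at 0.0708 to 0.136 CPM in cKO glands, against 0.219 to 0.414 CPM in control glands (log2 fold change -1.56, adjusted p = 0.0374). These levels were very low, and the cKO values stand for a few reads per library. Dcstamp was not called without cKO replicates 1, 2 or 3 or control replicates 1 or 3 (adjusted p up to 0.0977). Its partner Ocstamp was not called (log2 fold change -0.92, adjusted p = 0.231). Cd36, a receptor for lipids also made by endothelium, fell (log2 fold change -0.72, adjusted p = 0.00555).

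Lysosomal and phagocytic genes changed in part, with 7 of 26 higher and 3 lower, against 14.6% and 20% of all genes. Ctss, a protease of antigen-presenting cells, had 198, 198, 67.4 and 144 CPM in cKO glands, against 48.7, 59.8, 57.8 and 43.4 CPM in control glands (log2 fold change 1.53 ± 0.35 (SE), adjusted p = 0.00174). Gas6, the ligand that bridges dying cells to TAM receptors, had 776, 1163, 1405 and 572 CPM in cKO glands, against 465, 309.6, 648 and 315 CPM in control glands (log2 fold change 1.17 ± 0.28 (SE), adjusted p = 0.00255). Its groups overlapped at one point, where the lowest cKO value lay below control replicate 3. The receptors did not follow, with Axl (log2 fold change -0.28, adjusted p = 0.0716) and Mertk (log2 fold change -0.12, adjusted p = 0.447) not called and Tyro3 lower (log2 fold change -0.76, adjusted p = 0.00101). Itgb3, an integrin subunit, fell to 4.98, 5.40, 6.80 and 5.92 CPM in cKO glands, against 12.6, 22.3, 23.6 and 16.1 CPM in control glands (log2 fold change -1.69 ± 0.20 (SE), adjusted p = 1.14e-06).

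In the complement list, 6 of 17 were higher and 5 lower, against 14.6% and 20% of all genes. C4b had 224, 204, 215 and 219.9 CPM in cKO glands, against 117, 124, 118 and 119 CPM in control glands, and the 2 groups were narrow and separate (log2 fold change 0.85 ± 0.11 (SE), adjusted p = 2.47e-06). C2 and the receptors C3ar1 and C5ar1 rose as well (C5ar1 log2 fold change 0.78, adjusted p = 0.0203). C5ar1 was not called without cKO replicates 1 or 2 or control replicate 4 (adjusted p up to 0.0695). Without cKO replicate 2 the list had 3 higher members. Inhibitors split. Cd59a rose (log2 fold change 0.66, adjusted p = 0.0311), while Cd55, which breaks up the convertase on cells, fell to 1.87, 1.58, 1.21 and 1.68 CPM in cKO glands, against 12.3, 12.7, 12.03 and 17.4 CPM in control glands (log2 fold change -3.10 ± 0.24 (SE), adjusted p = 3.48e-09). Cd59a was not called without cKO replicates 2 or 3 or control replicates 1, 2 or 3 (adjusted p up to 0.141). Serping1 fell by 1.70-fold. C3 had 2286, 3308, 7664 and 2714 CPM in cKO glands, against 2716, 1041, 2419 and 1880 CPM in control glands, so replicate 3 of the cKO group was far above all others, and the difference missed the threshold (log2 fold change 0.99, adjusted p = 0.0878). Without that library the C3 estimate was smaller (log2 fold change 0.46, adjusted p = 0.45), and without cKO replicates 1 and 2 it was called higher (log2 fold change 1.39, adjusted p = 0.0487).

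Lymphocyte genes were at low levels. Of 18 T and NK genes, 6 were higher and none lower (median 0.88), against 14.6% and 20% of all genes. Their summed level was 25.5, 28.3, 12.1 and 24.1 CPM in cKO glands, against 8.76, 13.6, 15.3 and 9.93 CPM in control glands. Il7r, a cytokine receptor, had 4.86, 5.02, 1.39 and 5.29 CPM in cKO glands, against 0.704, 1.07, 1.27 and 0.949 CPM in control glands (log2 fold change 2.06 ± 0.47 (SE), adjusted p = 0.0015). Nkg7, a granule protein of killer cells, had 1.28, 1.51, 0.723 and 1.302 CPM in cKO glands, against 0.329, 0.137, 0.497 and 0.487 CPM in control glands (log2 fold change 1.72 ± 0.36 (SE), adjusted p = 7.27e-04). Replicate 3 of the cKO group was again nearest to the controls, and without it 10 genes of the list were called higher, while without cKO replicate 2 it was 3 and without control replicate 1 it was 2. Of 21 antigen-presentation and dendritic cell genes 3 were higher and 1, the dendritic cell factor Zbtb46, was lower (log2 fold change -0.50, adjusted p = 9.05e-06). The share that was higher, 14.3%, was near the 14.6% of all genes, and the share that was lower, 4.76%, was under 20%. H2-DMb1 (log2 fold change 0.77, adjusted p = 0.0137) and H2-DMa (log2 fold change 0.58, adjusted p = 0.0202), which help to load peptide on class II molecules, rose, and the class II chaperone Cd74 was not called (log2 fold change 0.52, adjusted p = 0.115). H2-DMa was not called without cKO replicate 1 or control replicate 4 (adjusted p up to 0.074). Without control replicate 4 or cKO replicate 1 the list had 1 higher member, and with only the 9-week groups fitted it had 9. Of 10 B and plasma cell genes 2 were higher and 1 lower, against 14.6% and 20% of all genes. Without cKO replicate 2, control replicate 2 or control replicate 3 none was higher. In the list of neutrophil and mast cell genes, 1 of 10 tested rose and 1, Ltf, fell (log2 fold change -1.47, adjusted p = 0.0453), against 14.6% and 20% of all genes. Ltf was not called without cKO replicates 1, 2 or 3 or control replicates 2, 3 or 4 (adjusted p up to 0.131). The riser was Kit, a receptor kinase of mast cells that other cells also make, at 25.1, 28.1, 38.9 and 39.3 CPM in cKO glands, against 8.80, 9.36, 7.04 and 8.52 CPM in control glands (log2 fold change 1.96 ± 0.22 (SE), adjusted p = 5.51e-07). Mast cell proteases such as Cpa3 (log2 fold change -0.60, adjusted p = 0.51) and Cma1 (log2 fold change 0.34, adjusted p = 0.817) did not pass the test.

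Vascular genes were lower by small amounts. Of 21 endothelial genes, 15 fell and 2 rose, against 20% and 14.6% of all genes, with a median of -0.43. Cdh5, the junction cadherin of endothelium, had 83.1, 73.3, 76.4 and 72.3 CPM in cKO glands, against 108, 107, 110.2 and 116 CPM in control glands (log2 fold change -0.53 ± 0.068 (SE), adjusted p = 2.69e-06). Kdr, the main VEGF receptor, had 114.9 to 154 CPM in cKO glands, against 194 to 237 CPM in control glands (log2 fold change -0.64, adjusted p = 1.03e-04). The groups did not meet in either. Esm1, which marks VEGF-responsive tip cells, rose instead, to 61.4, 64.6, 69.2 and 65.3 CPM in cKO glands, against 24.8, 29.9, 28.1 and 36.2 CPM in control glands (log2 fold change 1.13 ± 0.12 (SE), adjusted p = 2.97e-07). Plvap, the protein of fenestrae, rose by 1.24-fold (log2 fold change 0.31, adjusted p = 0.021). Plvap was not called without cKO replicates 1 or 2 or control replicates 1 or 4 (adjusted p up to 0.084). Vegfa, the ligand, was lower (log2 fold change -0.53, adjusted p = 0.0074). Of 5 lymphatic genes 2 fell, against 20% of all genes: Flt4 (log2 fold change -0.51, adjusted p = 1.28e-04) and Pdpn (log2 fold change -1.12, adjusted p = 0.0062). Of 12 genes of smooth muscle and pericytes 3 fell and 2 rose, near the 20% and 14.6% of all genes.

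Of 25 capsule and matrix genes 18 were lower and 3 higher, against 20% and 14.6% of all genes, with a median of -0.87. Nr2f2, a nuclear receptor of capsule and stroma, had 80.9, 77.7, 76.6 and 63.0 CPM in cKO glands, against 131, 139, 133 and 129.7 CPM in control glands (log2 fold change -0.84 ± 0.084 (SE), adjusted p = 9.97e-08). Postn, a matrix protein, had 35.1, 30.2, 24.6 and 18.5 CPM in cKO glands, against 96.6, 117, 92.5 and 109 CPM in control glands (log2 fold change -1.94 ± 0.21 (SE), adjusted p = 2.79e-07). The fibrillar collagens Col1a1 (log2 fold change -1.28, adjusted p = 0.00134), Col1a2 (log2 fold change -1.26, adjusted p = 8.55e-04) and Col3a1 (log2 fold change -0.97, adjusted p = 0.0255) fell together, as did the small proteoglycans Dcn and Lum. Col3a1 was not called without cKO replicate 2 or control replicates 1 or 2 (adjusted p up to 0.0691). The 3 that rose included both genes of a less common collagen IV chain pair. Col4a5 had 126, 112, 122 and 107 CPM in cKO glands, against 63.3, 45.6, 48.5 and 42.7 CPM in control glands (log2 fold change 1.22 ± 0.16 (SE), adjusted p = 2.48e-06), and Col4a6 had 31.4, 27.6, 31.7 and 21.4 CPM in cKO glands, against 6.64, 3.98, 6.46 and 4.21 CPM in control glands (log2 fold change 2.40 ± 0.31 (SE), adjusted p = 3.11e-06). The widely used chains moved little, with Col4a1 lower by 1.18-fold (log2 fold change -0.24, adjusted p = 0.0426) and Col4a2 not called (log2 fold change -0.14, adjusted p = 0.225). Col4a1 was not called without cKO replicates 1, 2 or 3 or control replicates 1, 2, 3 or 4 (adjusted p up to 0.122). Col5a1 was the other riser (log2 fold change 0.79, adjusted p = 4.81e-04).

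Proliferation genes were seldom called, though the median log2 fold change of their list was -0.49, against -0.0189 over all genes. Of 24 cell-cycle genes none was higher and 2, E2f1 (log2 fold change -0.49 ± 0.11 (SE), adjusted p = 8.64e-04) and Mcm2 (log2 fold change -0.31, adjusted p = 0.0146), were lower, against 14.6% and 20% of all genes. Mcm2 was not called without cKO replicate 2 or control replicate 4 (adjusted p up to 0.0686). Leaving out 1 library gave between 1 lower gene, without cKO replicate 2 or control replicate 4, and 4, without cKO replicate 1. Mki67, which marks dividing cells, had 30.1, 15.9, 25.96 and 9.25 CPM in cKO glands, against 36.6, 24.2, 41.9 and 35.1 CPM in control glands. The cKO libraries ran from below all controls to within them (log2 fold change -0.76 ± 0.37 (SE), adjusted p = 0.123), and replicate 4 was the lowest of the cKO group for 20 of the 24 genes.

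Among the cell-cycle inhibitors, Cdkn2a, which encodes p16 and p19ARF, had 6.64, 5.57, 8.39 and 5.26 CPM in cKO glands, against 1.90, 1.89, 2.15 and 3.41 CPM in control glands. It was higher in all 4 cKO glands (log2 fold change 1.46 ± 0.22 (SE), adjusted p = 1.71e-05). Cdkn2c, which encodes p18, had 44.2 to 56.6 CPM in cKO glands, against 32.8 to 39.2 CPM in control glands (log2 fold change 0.52, adjusted p = 1.81e-05). Cdkn1a, which encodes p21, had 31.7, 28.9, 30.9 and 30.8 CPM in cKO glands, against 19.4, 24.2, 27.9 and 26.9 CPM in control glands, and although the groups did not overlap the difference missed the threshold (log2 fold change 0.31 ± 0.21 (SE), adjusted p = 0.26). Cdkn1c fell (log2 fold change -0.71, adjusted p = 0.00582). The p53 targets were mostly not called, Mdm2 (log2 fold change 0.033, adjusted p = 0.653) and Ccng1 (log2 fold change -0.028, adjusted p = 0.8287) among them, while Bax rose (log2 fold change 0.41, adjusted p = 0.00263) and Plk2 and Sesn2 fell, for 3 higher and 3 lower of 24. These shares, 12.5% each, were under the 14.6% and 20% of all genes.

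Of 35 secreted genes linked to senescence, 8 were higher (22.9%) and 10 lower (28.6%), against 14.6% and 20% of all genes. Mmp12, a macrophage elastase, had 79.1, 88.4, 17.3 and 69.7 CPM in cKO glands, against 9.55, 18.97, 17.3 and 9.88 CPM in control glands (log2 fold change 2.20 ± 0.60 (SE), adjusted p = 0.00669). Replicate 3 of the cKO group lay within the control range. Ccl8 was higher (log2 fold change 4.78, adjusted p = 0.00101) at very low levels, with 0.496, 0.765, 0.107 and 0.353 CPM in cKO glands, against 0, 0, 0.0276 and 0.0243 CPM in control glands. Csf1, the macrophage growth factor, rose (log2 fold change 0.49, adjusted p = 0.00667). Igfbp6 (log2 fold change -1.54, adjusted p = 7.45e-05), Mmp2 (log2 fold change -1.72, adjusted p = 5.46e-04) and Timp2 (log2 fold change -0.71, adjusted p = 9.14e-05) fell. Of 20 interferon-stimulated genes, 1 was higher, Irf1 (log2 fold change 0.30, adjusted p = 0.042), and 1 lower, Rsad2. These shares, 5% each, were under the 14.6% and 20% of all genes. Irf1 was not called without cKO replicates 1, 2 or 4 or control replicates 1, 2, 3 or 4 (adjusted p up to 0.14). Without cKO replicate 1, control replicate 1 or control replicate 2 the list had 2 lower members.

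**Figure D4:**
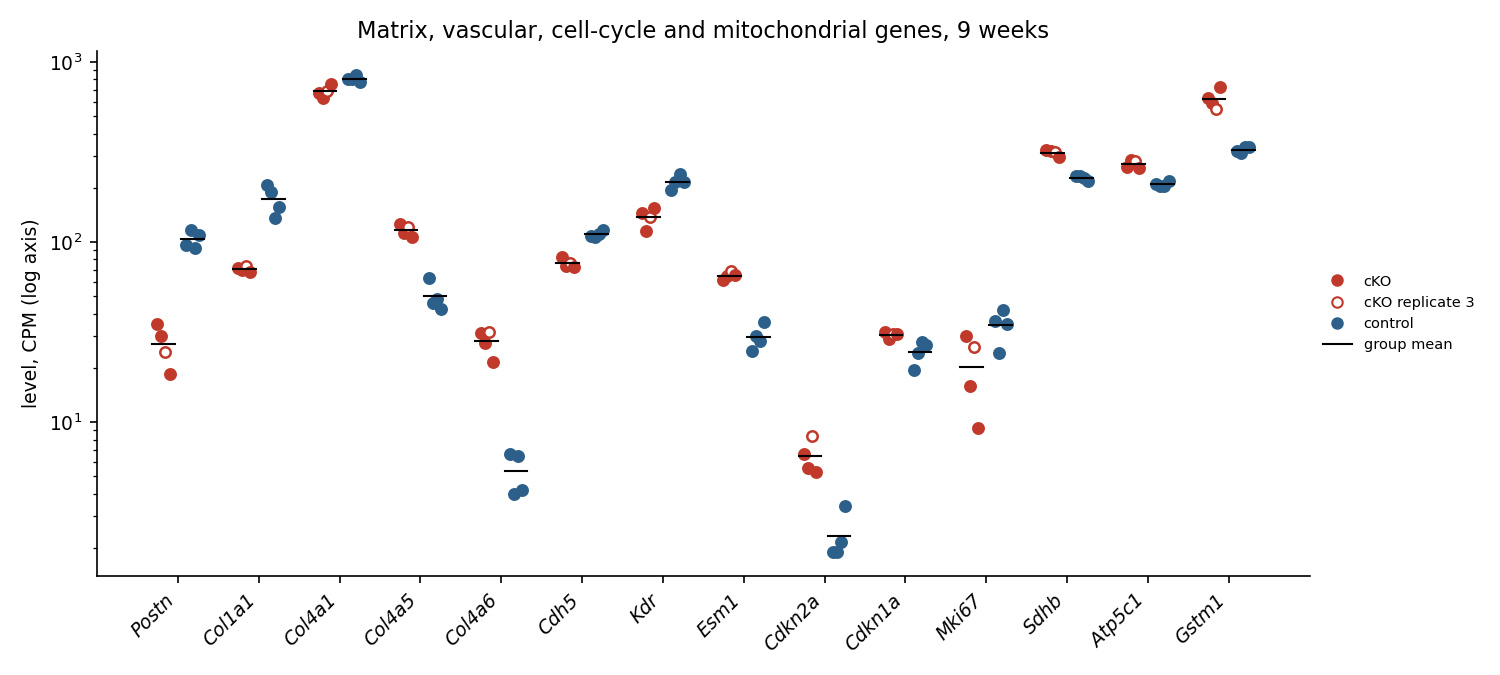
Levels (CPM, log axis) of matrix, vascular, cell-cycle inhibitor and mitochondrial genes in each 9-week library, cKO left of control, with a bar at each group mean and cKO replicate 3 as an open circle. Col4a5, Col4a6, Esm1, Cdkn2a and Sdhb lie higher, and Postn and Col1a1 lower, in all 4 cKO libraries, while Mki67 overlaps between the groups.

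Mitochondrial genes rose by a small and even amount. Of 22 nuclear genes of oxidative phosphorylation, 19 were higher and none lower, against 14.6% and 20% of all genes, with a median of 0.29. Sdhb, a subunit of complex II, had 322, 319, 316 and 297 CPM in cKO glands, against 232, 234, 227 and 219 CPM in control glands (log2 fold change 0.46 ± 0.062 (SE), adjusted p = 5.21e-06). Atp5c1, of the ATP synthase, had 257 to 285 CPM in cKO glands, against 204 to 217 CPM in control glands (log2 fold change 0.38, adjusted p = 6.67e-06). The groups were separate in both. The share of counts from the mitochondrial genome was 3.03% to 4.71% in cKO glands, against 3.5% to 5.08% in control glands. In the list of glutathione, redox and iron genes, 10 of 23 were higher (43.5%) and 5 lower (21.7%), against 14.6% and 20% of all genes. Gstm1, a glutathione transferase, had 627, 592, 545 and 728 CPM in cKO glands, against 319, 312, 336 and 336 CPM in control glands (log2 fold change 0.93 ± 0.11 (SE), adjusted p = 4.88e-07). Sod1 had 655 to 806 CPM in cKO glands, against 503 to 518 CPM in control glands (log2 fold change 0.54, adjusted p = 1.80e-05). The alpha-class transferase Gsta3 was lower, at 5.12, 5.78, 8.52 and 11.02 CPM in cKO glands, against 26.5, 23.9, 44.4 and 20.98 CPM in control glands (log2 fold change -1.93 ± 0.40 (SE), adjusted p = 7.06e-04).

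The IGF axis fell in 7 of 10 genes and rose in 1, against 20% and 14.6% of all genes. Igf2, a fetal growth factor, had 0.118, 0.287, 0.241 and 0.0271 CPM in cKO glands, against 1.197, 0.906, 0.69 and 0.803 CPM in control glands (log2 fold change -2.39 ± 0.42 (SE), adjusted p = 1.35e-04). Its imprinted neighbour H19 had 0.614, 0.717, 0.857 and 0.597 CPM in cKO glands, against 2.35, 3.98, 1.46 and 2.97 CPM in control glands (log2 fold change -1.95 ± 0.28 (SE), adjusted p = 9.82e-06). Both were low in every library. Igf2bp2 fell (log2 fold change -1.86, adjusted p = 8.27e-07) and Igf2bp3 rose (log2 fold change 1.51, adjusted p = 5.75e-04). Of 17 hormone receptors, 6 were lower and 1 higher, against 20% and 14.6% of all genes. Lepr, the leptin receptor, had 7.23, 5.26, 4.23 and 4.48 CPM in cKO glands, against 17.9, 20.1, 22.8 and 17.5 CPM in control glands (log2 fold change -1.88 ± 0.23 (SE), adjusted p = 1.09e-06). Bcl2, which protects cells from apoptosis, was lower (log2 fold change -0.80, adjusted p = 1.76e-05), in a list with 4 of 18 lower (2 without cKO replicate 2) and 1, Bak1, higher, against 20% and 14.6% of all genes. Of 20 immediate early genes 2 rose, Fosl2 (log2 fold change 0.83, adjusted p = 2.65e-05) and Atf3 (log2 fold change 1.23, adjusted p = 0.0125), and none fell, against 14.6% and 20% of all genes. With cKO replicate 3 left out, 4 rose. No gene of the adipose or erythrocyte lists was called.

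Outside the lists, the genes with the largest changes were named by size among those called, without overlap between groups and with a mean log2 CPM not under 1. Cyp7a1, the rate-limiting enzyme of bile acid synthesis, rose most, to 13.01, 3.56, 2.55 and 9.39 CPM in cKO glands, against 0.141, 0.0549, 0.138 and 0.0487 CPM in control glands (log2 fold change 6.17 ± 0.80 (SE), adjusted p = 2.81e-06). Cyp7a1 is also a liver gene, and without cKO replicates 1 and 2 its log2 fold change was 5.94 (adjusted p = 2.28e-05). Mgat4c, a glycosyltransferase gene, had 198, 459, 503 and 221 CPM in cKO glands, against 22.3, 17.7, 34.4 and 22.02 CPM in control glands (log2 fold change 3.84 ± 0.46 (SE), adjusted p = 9.23e-07). Nxph1, a neurexin ligand, had 16.2, 10.1, 16.6 and 38.3 CPM in cKO glands, against 2.32, 1.51, 0.552 and 1.12 CPM in control glands (log2 fold change 3.87 ± 0.60 (SE), adjusted p = 2.62e-05). Each of these was separate from the controls by a wide margin. Cdh13, a cadherin without a transmembrane part, had 51.5, 74.2, 35.5 and 39.6 CPM in cKO glands, against 6.27, 7.80, 6.02 and 5.69 CPM in control glands (log2 fold change 2.96 ± 0.28 (SE), adjusted p = 4.35e-08). Lingo3 had 28.9 to 47.0 CPM in cKO glands, against 4.12 to 8.05 CPM in control glands (log2 fold change 2.51, adjusted p = 8.97e-08). Pcna-ps2, a processed pseudogene of Pcna (log2 fold change 3.33, adjusted p = 7.89e-05), and Eif3j2, a near copy of Eif3j1 (log2 fold change 2.74, adjusted p = 0.0019), are uncertain because reads may be shared with their parents.

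Kcnip1, which encodes a potassium channel partner, fell most, to 0.0236, 0.0956, 0.0536 and 0.0814 CPM in cKO glands, against 3.64, 5.96, 3.42 and 4.67 CPM in control glands (log2 fold change -6.06 ± 0.48 (SE), adjusted p = 4.38e-09). The cKO values stand for a few reads per library. Rtl4 had 0.331, 0.382, 0.321 and 0.326 CPM in cKO glands, against 4.30, 5.82, 5.38 and 5.40 CPM in control glands (log2 fold change -3.93 ± 0.27 (SE), adjusted p = 7.88e-10). Diras2, a small GTPase, had 0.567, 0.573, 0.375 and 1.09 CPM in cKO glands, against 7.98, 9.20, 7.53 and 8.86 CPM in control glands (log2 fold change -3.69 ± 0.26 (SE), adjusted p = 1.03e-09). Gpr179, an orphan receptor, fell by 12.6-fold (log2 fold change -3.65, adjusted p = 6.85e-10), Frmpd1 by 12.6-fold (log2 fold change -3.65, adjusted p = 3.06e-09), Lhfpl3 by 13.03-fold (log2 fold change -3.70, adjusted p = 1.63e-07), Dbpht2 by 17.9-fold (log2 fold change -4.16, adjusted p = 2.36e-08) and Spock1, a secreted proteoglycan, by 12.4-fold (log2 fold change -3.63, adjusted p = 2.89e-08). Fez1 had 0.779, 0.669, 0.188 and 0.95 CPM in cKO glands, against 1.57, 15.3, 14.3 and 1.995 CPM in control glands (log2 fold change -3.67, adjusted p = 0.0118). Its controls fell into a low and a high pair.

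Females of 6 and 12 weeks were fitted in the same model. The genotype effect at 9 weeks minus that at 6 weeks was called for 12 genes (0.0644% of those tested), all with a higher value at 9 weeks, and 1258 genes had an unadjusted p under 0.05. With DESeq2 the count was 93. The rule for named genes took the 5 largest, and the others were named after their values were seen. Pik3c2g differed most. Its log2 fold change was -5.54 ± 0.55 at 6 weeks and -1.28 ± 0.45 at 9 weeks, a difference of 4.26 ± 0.67 (SE), adjusted p = 0.0128. At 6 weeks it averaged 4.81 ± 4.75 CPM in cKO glands and 224 ± 57.9 CPM in control glands, and at 9 weeks 34.2 ± 16.5 CPM in cKO glands and 83.3 ± 31.2 CPM in control glands (SD, n = 4 each). The cKO mean was higher and the control mean lower at 9 weeks than at 6 weeks. Vsnl1, a calcium sensor of the zona glomerulosa, had an effect of -3.59 ± 0.22 at 6 weeks and -1.89 ± 0.21 at 9 weeks (difference 1.70 ± 0.29 (SE), adjusted p = 0.0257), so it was lower in cKO glands at both ages.

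Car8 (difference 2.72 ± 0.49 (SE), adjusted p = 0.0326), Pcp4l1 (difference 1.21 ± 0.19 (SE), adjusted p = 0.0128), Efemp1 (difference 1.45 ± 0.26 (SE), adjusted p = 0.0326), Il34 (difference 1.42 ± 0.25 (SE), adjusted p = 0.0326) and Cd1d1 (difference 1.10 ± 0.21 (SE), adjusted p = 0.0472) likewise stayed lower in cKO glands at 9 weeks. Irf8, a factor of myeloid and dendritic cells, was lower at 6 weeks (-1.21 ± 0.13) but had 40.4, 38.4, 36.8 and 41.0 CPM in cKO glands, against 40.5, 42.4, 49.5 and 32.8 CPM in control glands at 9 weeks, with the groups mixed (difference 1.13 ± 0.18 (SE), adjusted p = 0.0128). Aldh4a1, Metrnl and Omp also had no call at 9 weeks. Serpina3c turned, being lower in cKO glands at 6 weeks (-1.41 ± 0.29) and higher at 9 weeks (0.85 ± 0.29, difference 2.26 ± 0.41 (SE), adjusted p = 0.0326). Its rise at 9 weeks was called (log2 fold change 0.85, adjusted p = 0.0268). Serpina3c was not called without cKO replicates 3 or 4 or control replicates 3 or 4 (adjusted p up to 0.136). When 1 of the 16 libraries of these ages was left out, the number of called genes ranged from 5, as without cKO replicate 4 of 9 weeks, to 20, without control replicate 2 of 6 weeks. Pik3c2g, Pcp4l1, Irf8 and Aldh4a1 were called in all 16 such fits, and the other genes in between 2, for Cd1d1, and 12, for Vsnl1.

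**Figure D5:**
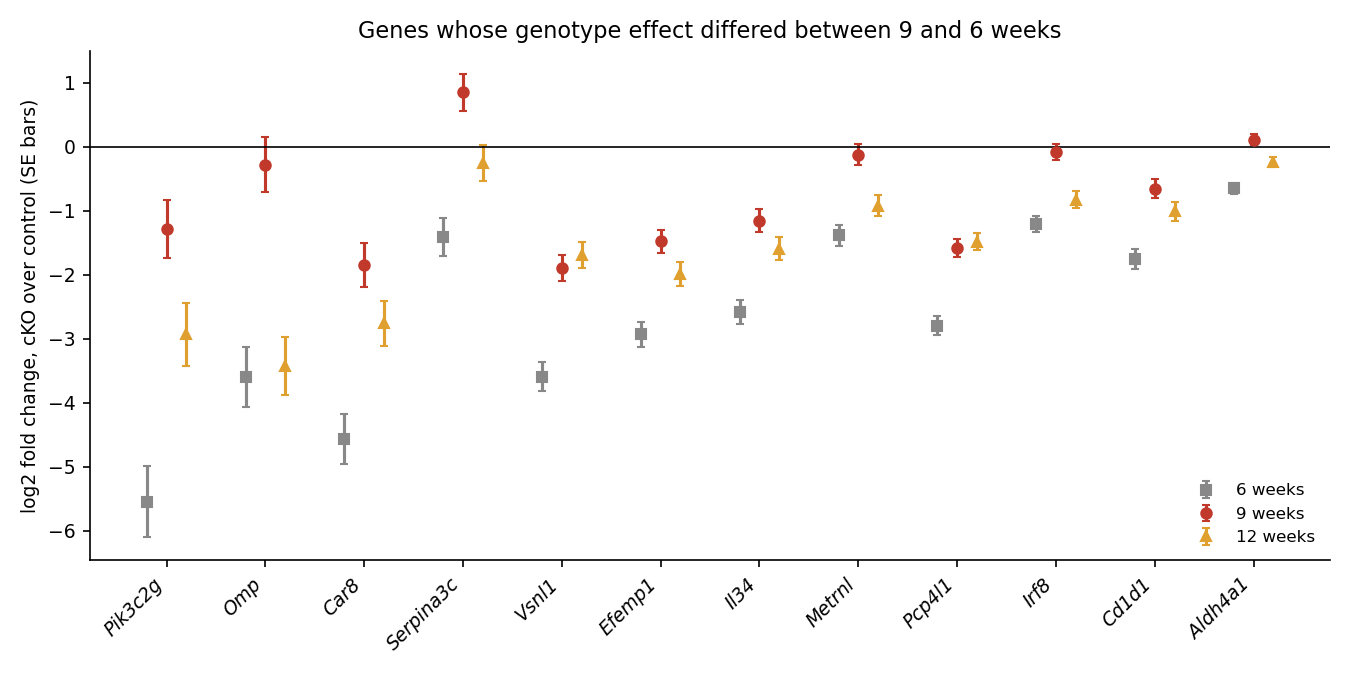
Log2 fold change of cKO over control at 6, 9 and 12 weeks, with SE bars, for the 12 genes whose effect at 9 weeks differed from that at 6 weeks. Each gene lies higher at 9 than at 6 weeks, and Pik3c2g has the widest gap.

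The effect at 9 weeks minus that at 12 weeks was called for 0 genes by edgeR (0%), with 1664 at an unadjusted p under 0.05 and 60 called by DESeq2. Without cKO replicate 4 of 12 weeks edgeR called 2. Fa2h, a fatty acid hydroxylase gene, had the widest swing among the genes named for size. At 9 weeks it had 7.37, 10.9, 24.2 and 40.3 CPM in cKO glands, against 5.07, 2.72, 1.38 and 1.31 CPM in control glands (log2 fold change 2.97 ± 0.90 (SE), adjusted p = 0.013). At 6 weeks it averaged 4.31 ± 2.55 CPM in cKO glands and 21.7 ± 8.52 CPM in control glands (SD, n = 4 each), and at 12 weeks 5.85 ± 2.60 CPM in cKO glands and 25.5 ± 28.8 CPM in control glands (SD, n = 4 each). The difference of effects missed the threshold against 6 weeks (5.30 ± 1.24 (SE), adjusted p = 0.138) and against 12 weeks (5.10 ± 1.24 (SE), adjusted p = 0.238). In the immediate early list, 13 of 20 genes were lower in cKO glands at 12 weeks (16% of all genes were lower and 9.11% higher at that age) and none was at 9 weeks, with no difference of effects called for any of them. The chromaffin list was lower in 28 of 28 genes at all 3 ages, with medians of -3.21 at 6 weeks, -2.73 at 9 weeks and -2.78 at 12 weeks. Cholesterol genes, of which 2 were lower at 9 weeks, had 12 of 28 lower at 6 weeks, against 19.1% of all genes, and no difference of effects was called among them.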

How the data were processed

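Bulk poly(A) RNA of whole adrenal glands was sequenced, and the deposited gene-level counts are raw whole-number read counts per gene, made by the authors. The submitters' processing notes name cutadapt 1.16, STAR 2.7.6a, RSEM, featureCounts and DESeq2 1.30.1. Their roles, the annotation release, the strand setting and the counting of shared or overlapping reads are not stated in the sources used here, so paralogs and overlapping genes are less certain. Groups came from the labels, and 55227 of 55487 gene identifiers had a symbol in the GENCODE M21 annotation (GRCm38). In R 4.3.3, edgeR 4.0.16 (with limma 3.58.1) fitted 24 female libraries in 6 groups after filterByExpr (minimum count 10) and TMM scaling, with the quasi-likelihood test and Benjamini-Hochberg adjustment, and a script checked the fit on simulated data. DESeq2 1.42.0, other filters and scalings, a replicate block and leaving out each library were alternatives. The members and lists were chosen with earlier results of these data known. Named genes were 14 set genes (Akr1c18, Cyp11b1, Cyp11b2, Nr5a1, Star, Cd68, Trem2, Axin2, Lef1, Rnf43, Znrf3, Cdkn1a, Cdkn2a and Mki67), the 10 largest rises and falls among called genes without overlap and with a mean log2 CPM not under 1, leaving out predicted genes, up to 5 members of each list with the smallest p, and the 5 largest called differences between ages in each direction. Other list members were named with their list, and other genes after their values were seen. No test over a list was made. Male and other tables were not used here, and a few members of the lists are not reported here by name. The p-values weigh each difference against a spread between animals that was estimated over the 24 female libraries of the fit. The number of libraries and their depth limit the precision.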

Additional observations from a re-analysis of the deposited data

Results flagged for a closer look

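Among 542 groups of 4 libraries, 29 (5.35%) held a library that stood far from the other 3 by Dixon's test, about what chance gives (1 in 20). Values are CPM, and no explanation was weighed. In the cKO group, replicate 3 was the highest for Cyp11b2 (189) and the lowest for C3ar1 (13.8), C5ar1 (3.295), H2-DMb1 (6.97), Il7r (1.39), Notum (1.18) and Syp (6.08). Replicate 2 of the cKO group was the lowest for Ccng1 (109) and Ptch1 (42.8) and the highest for Rtl4 (0.382). Replicate 1 was the highest for Pdpn (2.86), and replicate 4 the lowest for Foxd3 (0.163) and for the summed phagocytosis and lysosome list (7685).

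In the control group, replicate 4 was the highest for Alb (3.14), for the summed liver and kidney list (3.97), Cd55 (17.35), Cdkn2a (3.41) and Mcm2 (61.7), and the lowest for Cdon (10.4). Replicate 2 was the highest for Atf3 (2.96), Gata6 (103), Nkd1 (83.7), Spock1 (18.9) and Tyrobp (11.2) and the lowest for Ncam1 (16.03). Replicate 3 was the highest for Igf2bp3 (0.524) and the summed cholesterol list (6827) and the lowest for Tagln (47.9), and replicate 1 the highest for Inhba (3.17).

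The genotype effect at 9 weeks differed from that at 6 weeks, by edgeR's test of the difference itself, for 12 genes. The differences on the log2 scale were 4.26 for Pik3c2g, 3.32 for Omp, 2.72 for Car8, 2.26 for Serpina3c, 1.70 for Vsnl1, 1.45 for Efemp1, 1.425 for Il34, 1.26 for Metrnl, 1.21 for Pcp4l1, 1.13 for Irf8, 1.10 for Cd1d1 and 0.76 for Aldh4a1, all positive, with the value at 9 weeks the higher one.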

How the results depend on the processing

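The 9-week count of 6450 genes by edgeR became 6857 with DESeq2, 6591 with another scaling (RLE), 5918 with no filter on low counts, 5958 with only the 8 libraries compared, 5446 to 5993 when 1 of them was left out, and 5240 without cKO replicates 1 and 2, a choice made after seeing the data. Of the 6450 genes, 6272 were also called with DESeq2 and 4671 without those replicates, where 7 Wnt receptor control genes (11), 8 zona glomerulosa genes (10) and 2 redox genes (5) were lower and 2 T and NK genes (6) higher. Named genes that lost the call without those replicates included Akr1c18, Scarb1, Cd68, Trem2, Lgals3, Tyrobp, Ctss and Mmp12 (adjusted p from 0.0625 for Trem2 to 0.228 for Cd68). A filter of 5 CPM in 4 libraries left 12022 genes and 2461 lower calls, against 3722, since it removes low genes. The genes with an effect that differed between 9 and 6 weeks numbered 93 with DESeq2 (84 higher, 9 lower), 42 with only the groups compared (40 higher, 2 lower) and 5 to 20 when 1 library was left out (5 to 19 higher, 0 to 1 lower). Between 9 and 12 weeks DESeq2 called 60 (17 higher, 43 lower), and leaving out 1 library gave 0 to 2, all lower; the cause of these shifts was not tested. With only the groups compared, 9 antigen-presentation and 4 interferon genes were higher (3 and 1 in the fit over all ages), and 6 of the p53 list and 3 immediate early genes were lower (3 and 0). DESeq2 called 1 X-zone gene lower (2 by edgeR), the 5 CPM filter left 1 higher T and NK gene (6) and 5 lower glial genes (12), and the block gave 6 lower cell-cycle genes (2). The named genes gave 3496 comparisons over the 236 genes, of which 3293 kept the side of the threshold, 193 lost the call and 10 gained one. No gene called in either of the fits compared changed direction. Genes called in neither could change sign, as Alb did (log2 fold change 2.94 with every library, -3.55 without cKO replicates 1 and 2). Replicate numbers are in the labels, but libraries of the same number did not deviate together (r = 0.0109, 0.0241, 0.0268 and -0.0873). None of the cKO libraries correlated best with the control of its own number. These correlations cannot tell whether libraries of the same number shared a litter or a batch. A replicate block gave 5705 calls (2264 higher, 3441 lower).

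Each 9-week library held 35694264 counts or more, so levels under about 0.1 CPM stand for few reads. Liver transcripts in 3 of the 8 libraries and the low chromaffin and macrophage levels of cKO replicate 3 were not modelled.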

Other observations

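Lists described briefly above held further members with their own values. Hsd17b1, an enzyme that makes potent estrogens and androgens in the gonads, had 2.03, 2.89, 2.36 and 2.20 CPM in cKO glands, against 1.03, 1.40, 1.05 and 0.754 CPM in control glands (log2 fold change 1.163 ± 0.21 (SE), adjusted p = 1.90e-04). Gata6, a transcription factor of the cortex, was higher too (log2 fold change 0.40, adjusted p = 0.00677). Ddc, the second enzyme of catecholamine synthesis, had 7.27, 8.22, 4.72 and 8.11 CPM in cKO glands, against 40.8, 37.4, 35.6 and 43.9 CPM in control glands (log2 fold change -2.48 ± 0.20 (SE), adjusted p = 4.55e-09). Syp, a protein of synaptic-like vesicles, fell by 4.81-fold (log2 fold change -2.27, adjusted p = 1.07e-09). Among glial genes, Cdh19 (log2 fold change -2.13, adjusted p = 1.04e-06), Gfra3 (log2 fold change -2.03, adjusted p = 3.36e-06) and the early neural crest factor Foxd3 (log2 fold change -1.96, adjusted p = 3.94e-05) were lower. The RNA-binding protein gene Igf2bp1, of the IGF list, had 0.189, 0.119, 0.214 and 0.0814 CPM in cKO glands, against 0.963, 0.741, 0.524 and 0.803 CPM in control glands (log2 fold change -2.31 ± 0.42 (SE), adjusted p = 1.93e-04), with all cKO libraries below the controls.

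Of 12 genes of smooth muscle and pericytes, 25% were lower and 16.7% higher, near the 20% and 14.6% of all genes. Tagln (log2 fold change -0.57, adjusted p = 0.00289), Des (log2 fold change -0.48, adjusted p = 0.00182) and Rgs5 (log2 fold change -0.58, adjusted p = 0.00592), of contractile and pericyte cells, were lower. Both subunits of the vascular potassium channel that responds to ATP, Kcnj8 (log2 fold change 0.46, adjusted p = 0.00867) and Abcc9 (log2 fold change 0.44, adjusted p = 0.0135), were higher. Abcc9 was not called without control replicate 4 (adjusted p = 0.0576). In endothelium, Nos3, which makes nitric oxide, had 10.7, 11.01, 9.46 and 10.7 CPM in cKO glands, against 17.4, 18.6, 21.2 and 17.4 CPM in control glands (log2 fold change -0.83 ± 0.094 (SE), adjusted p = 4.80e-07). Nr3c1, the glucocorticoid receptor (log2 fold change -0.47, adjusted p = 0.00298), and Insr, the insulin receptor (log2 fold change -0.40, adjusted p = 0.00205), were lower by small amounts.

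Lymphocyte genes that were called included Cd3d, of the T cell receptor complex, at 0.614, 0.693, 0.188 and 0.326 CPM in cKO glands, against 0.047, 0.192, 0.0828 and 0.219 CPM in control glands (log2 fold change 1.74, adjusted p = 0.0159). Cd3d was not called without cKO replicate 2 or control replicates 1 or 3 (adjusted p up to 0.0606). Also higher were Cd4 (log2 fold change 1.25, adjusted p = 0.0198) and the receptor gene segment Trbc2 (log2 fold change 0.92, adjusted p = 0.0263). Cd4 was not called without cKO replicate 4 or control replicates 1 or 4 (adjusted p up to 0.0702). Trbc2 was not called without cKO replicates 1 or 2 or control replicates 1, 2 or 3 (adjusted p up to 0.0992). The immunoglobulin heavy chain Ighm (log2 fold change 0.75, adjusted p = 0.023) and the chaperone Mzb1 (log2 fold change 0.77, adjusted p = 0.0248) were the higher members of the B cell list, and Sdc1, also made by epithelial cells, was its lower one (log2 fold change -0.63, adjusted p = 3.71e-04). Ighm was not called without cKO replicate 2 or control replicates 1, 2 or 3 (adjusted p up to 0.0878). Mzb1 was not called without cKO replicate 2 or control replicates 2 or 3 (adjusted p up to 0.0873).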
